A study of Rattus norvegicus and Mus musculus with 251 samples.

Results

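Nnt, Wdfy1, Entpd4 and Ide are genes whose brain expression or sequence is known to differ between, or within, lines of the C57BL/6 mouse that have been bred apart, and they are often read as markers of those lines. They were taken by symbol from a mouse table of 46078 gene identifiers, and all 4 were found in it. Nicotinamide nucleotide transhydrogenase (Nnt) makes NADPH in the inner mitochondrial membrane, and the C57BL/6J line is known for a deletion of several of its exons. Wdfy1 is an endosomal protein that binds phosphatidylinositol 3-phosphate and takes part in Toll-like receptor signalling. Insulin-degrading enzyme (Ide) is a metallopeptidase that cleaves insulin and amyloid beta, and a copy number difference covering Ide and its neighbour Fgfbp3 has been described within C57BL/6J stocks. Entpd4 is a nucleoside diphosphatase of the Golgi and lysosomes. Animals of an inbred line are bred to be genetically uniform, while stocks kept apart collect differences such as these.

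The study gave C57BL/6J mice of both sexes saline or morphine to drink and took tissue punches, giving 30 libraries of prefrontal cortex (PFC) and 32 of nucleus accumbens (NAc). Its 4 stages were saline, chronic morphine, 24 h after morphine and 2 weeks after morphine, with 3 to 5 libraries in each of the 8 groups of stage and sex in a region. All animals carry the same strain label, and the labels name no substrain, vendor or colony and only 1 mouse batch. Libraries are numbered 1 to 32, and 30 numbers have a library in both regions, but the labels do not say that a number is an animal or that libraries of a group came from separate animals. In the labelled order, numbers 1 to 7 were saline, 8 to 15 were 2 weeks, 16 to 24 were 24 h and 25 to 32 were chronic morphine.

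Reads counted to genes numbered 22387525 to 43963295 per library, apart from PFC 10 (2 weeks, female), which had 5182601, with 21.1% of reads unaligned and 10563 genes detected against a median of 20182 over all 62 libraries. Number 27 is labelled female but had the Y-linked Ddx3y at 5.72 log2 CPM in PFC and 6.28 in NAc, as in the males, while Xist of NAc 28, labelled male, was 4.19. Levels are given as log2 CPM, where CPM is the read count scaled to a common library size. The labelled cell type is neuron, but the summed CPM of 4 oligodendrocyte markers ranged from 2490 to 6987 in PFC and from 3072 to 10301 in NAc, so the punches held other cells. The summed CPM of 8 striatal neuron markers was 383 to 7676 in NAc and 163 to 297 in PFC.

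The question put to the 4 genes was whether their levels split the animals, and whether that split follows Gm10263, a processed pseudogene related to the ribosomal protein gene Rps28 whose counts were either near 0 or well above it. On the GRCm38 build with the GENCODE M21 annotation it is a single exon on the plus strand at chr13:73317844-73318143. Its sequence is shown because it decides what can be counted there: 63.7% of its windows of 75 bases, the labelled read length, also occur in another gene, mainly Gm13192 (59.3%) and Rps28 (43.4%). Capitals mark the 156 bases that lie in the 82 of 226 windows found in no other annotated gene.
Gm10263: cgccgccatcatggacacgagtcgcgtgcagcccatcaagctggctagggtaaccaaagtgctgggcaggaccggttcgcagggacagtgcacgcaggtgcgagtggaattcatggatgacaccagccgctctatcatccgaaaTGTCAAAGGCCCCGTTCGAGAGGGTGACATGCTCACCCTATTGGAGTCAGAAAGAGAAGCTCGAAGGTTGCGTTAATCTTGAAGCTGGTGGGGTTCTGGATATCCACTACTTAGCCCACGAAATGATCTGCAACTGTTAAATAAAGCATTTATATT
Counts of Gm10263 were 0 in all 12 PFC libraries called off and 121 to 574 in the 18 called on. In NAc they were 0 to 12 in the 13 off libraries and 219 to 596 in the 19 on libraries. The state was the same in both regions for 30 of 30 numbers. Only the 24 h males held both states, so in the other groups this agreement does not depend on the number.

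Gm10263 was off in the saline females (numbers 1 to 3), in every library at 2 weeks (8 to 15) and in 24 h males 16 and 17. It was on in the saline males (4 to 7), in the 24 h females (18 to 21), in 24 h males 22 to 24 and in every chronic library (25 to 32). Stage, sex and Gm10263 state therefore cannot be told apart in most comparisons: in saline the state coincided with sex, and 24 h males were the only group that held both states.

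**Figure D1:**
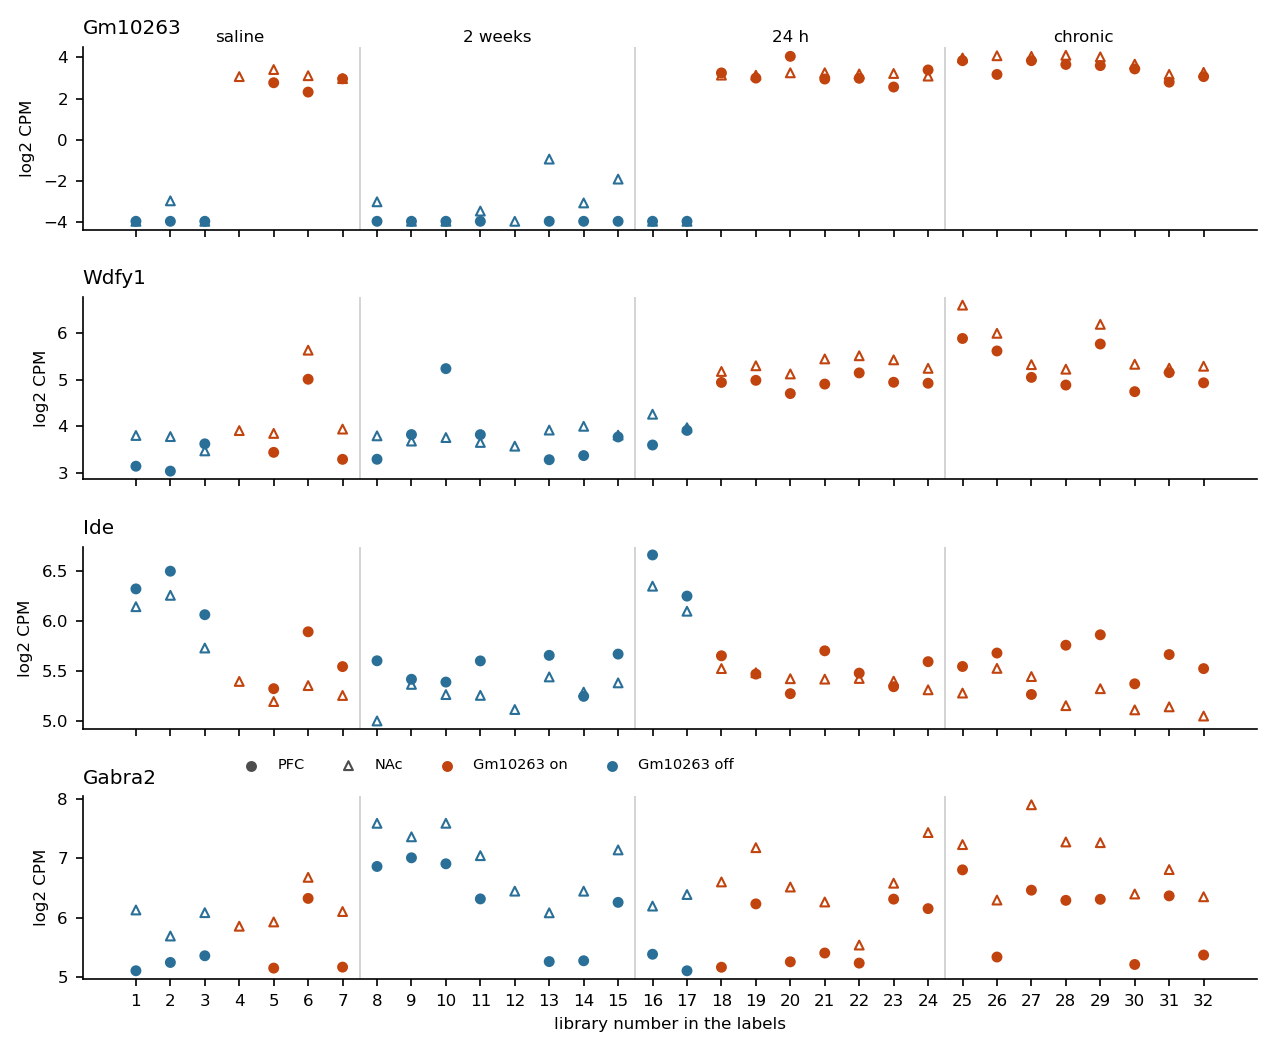
Levels (log2 CPM, y axis) of Gm10263, Wdfy1, Ide and Gabra2 in every library against the library number (x axis), with filled circles for PFC, open triangles for NAc and colour for the Gm10263 state. Wdfy1 steps up with Gm10263 from number 18 onward, Ide is high in numbers 1, 2, 16 and 17, and Gabra2 has bands of its own.

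Wdfy1 (chr1:79702262-79776143, minus strand, overlapping Mrpl44) fell into a low and a high set of libraries. In PFC the 13 lower libraries ranged from 3.04 to 3.92 log2 CPM and the 17 higher ones from 4.71 to 5.89, with none in the gap of 0.79. In NAc the 16 lower libraries ranged from 3.47 to 4.26 and the 16 higher ones from 5.13 to 6.61, a gap of 0.87. A gap that large with at least 3 libraries on each side was found in 4.81% of 19209 genes in PFC and in 1.47% in NAc. These shares depend on the prior count of 2 added before taking logs: with a prior count of 0.5 the Wdfy1 sets were the same size, but 19.5% and 13.2% of genes had a gap as large. Within bulk tissue, more cells that express a gene and more RNA per cell cannot be told apart.

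Within the high set, chronic libraries 25, 26 and 29 stood above the others. Their Wdfy1 levels were 5.89, 5.62 and 5.77 in PFC and 6.61, 6.00 and 6.20 in NAc. The other high libraries, apart from saline male 6 and PFC 10, lay between 4.71 and 5.16 in PFC and between 5.13 and 5.52 in NAc.

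The side of Wdfy1 was the same in both regions for 29 of 30 numbers. Apart from PFC 10, both sides occurred only within saline males and 24 h males. In the other groups the agreement does not depend on the number. Number 10 was the exception, at 5.24 in its shallow PFC library and 3.76 in NAc. Without numbers 10 and 27 the side was the same for 28 of 28. Because the levels form 2 sets, no correlation over all numbers is given. Among the 16 numbers high in both regions, PFC and NAc levels had r = 0.928 (permutation p = 3e-05, 0.00012 after Benjamini-Hochberg adjustment over the 4 relations printed) and Spearman's rho = 0.685 (permutation p = 0.00431), with stage means left in. Without numbers 25 and 29, the 2 farthest from the PFC median, r was 0.793 (permutation p = 0.00536). Chronic number 26, which also stood above the others, stayed in. The sets were read from these same levels. With stage means left in, r does not separate agreement by number from a difference between stages. Among the 13 numbers low in both, r was -0.12 (permutation p = 0.702, adjusted 0.702) and rho -0.093 (permutation p = 0.767).

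**Figure D2:**
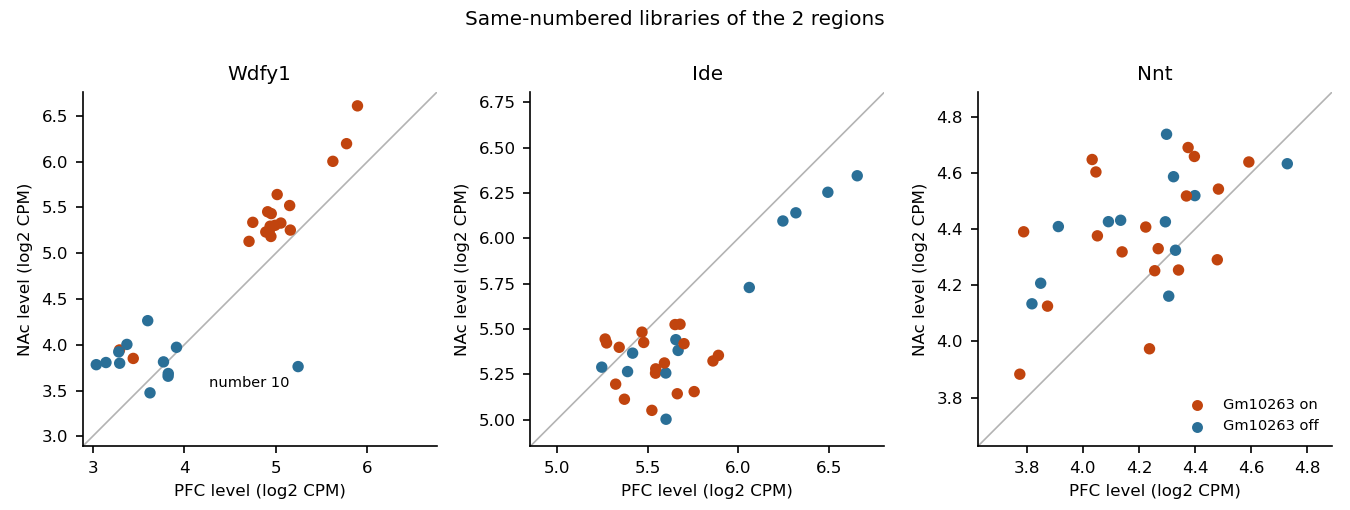
NAc level against PFC level (both log2 CPM) for the 30 library numbers with both regions, 1 point per number, coloured by Gm10263 state, with the line of equal levels. Wdfy1 forms 2 clouds with number 10 apart, Ide has 4 numbers far above the rest and number 3 between, and Nnt forms 1 cloud in which on and off points mix.

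The Wdfy1 split followed Gm10263 with exceptions that were all on 1 side but for the shallow library. High Wdfy1 was found in 16 of 18 on libraries in PFC and in 16 of 19 in NAc, the same numbers (6 and 18 to 32) in both regions. Saline males 5 and 7, and 4 in NAc, were on with low Wdfy1, at 3.44 and 3.29 in PFC and at 3.85, 3.94 and 3.91 in NAc. Of the off libraries, 0 of 13 were high in NAc and 1 of 12, PFC 10, was high in PFC. Across all pairs of an on and an off library, the on library had more Wdfy1 in 86.6% of pairs in PFC and 95.5% in NAc, and 0.682% and 0.229% of genes were as far from an even split. Shares of at most 10% or at least 90% were found for 0.312% of genes in PFC and 0.432% in NAc. Wdfy1 reached that only in NAc. After group means were removed, the Wdfy1 shares were 63.4% in PFC and 55.5% in NAc. Then 1.90% and 43.2% of genes were as far from an even split.

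In the 24 h males, where stage and sex are held fixed, the 3 on libraries (22 to 24) had Wdfy1 at 5.15, 4.95 and 4.93 in PFC, and the 2 off libraries (16 and 17) at 3.60 and 3.92. In NAc the same libraries had 5.52, 5.43 and 5.25 against 4.26 and 3.97. The ranges did not overlap in either region, and those of Ide and Nnt did not overlap in these males either. With 3 against 2 libraries in a split read from the data, no test was made. The share of all genes that separate the same libraries is not given, so the lack of overlap is not read as particular to these genes. The depths of the Wdfy1 sets overlapped: the median total was 31703600 counts in high and 29402700 in low PFC libraries, and 32159500 and 32319600 in NAc.

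Ide (chr19:37268743-37337852, minus strand) split differently, with 4 numbers high and 26 lower. In PFC, numbers 1, 2, 16 and 17 had 6.32, 6.49, 6.66 and 6.25 log2 CPM. In NAc the same numbers had 6.14, 6.25, 6.34 and 6.10. The next library in both regions was number 3, at 6.06 in PFC and 5.73 in NAc, and all others lay between 5.25 and 5.89 in PFC and between 5.00 and 5.53 in NAc.

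The Ide gap was narrower than that of Wdfy1, 0.19 in PFC and 0.37 in NAc. Gaps at least that large with 3 or more libraries on each side were found in 43.9% and 21.5% of genes, so the break itself was not rare. The same 4 numbers lay above it in both regions, by cuts read from these same levels. How many genes have sides that agree as well between regions is not given, for Ide or for Wdfy1. The side was the same for 30 of 30 numbers, and for 28 of 28 without numbers 10 and 27. Both sides occurred only within saline females and 24 h males, so in the other groups this agreement does not depend on the number. The high Ide libraries were on the shallow side, with a median total of 26943900 counts against 30890900 in PFC and 25087300 against 32697700 in NAc, and the part of depth in the Ide difference was not tested. Among the 26 numbers low in both regions, r was 0.256 (permutation p = 0.208, adjusted 0.278) and rho 0.128 (permutation p = 0.533). Without numbers 3 and 6, the 2 farthest from the PFC median, r was -0.021 (permutation p = 0.921).

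High Ide was found with Gm10263 off and low Wdfy1: 4 of 12 off libraries in PFC and 4 of 13 in NAc were high, against 0 of 18 and 0 of 19 on libraries. The reverse did not hold, since every library at 2 weeks was off, and Ide there was 5.25 to 5.67 in PFC and 5.00 to 5.44 in NAc. In the 24 h males, Ide was 5.34 to 5.59 in the 3 on libraries and 6.25 to 6.66 in the 2 off libraries of PFC, and 5.31 to 5.43 against 6.10 to 6.34 in NAc. The 3 saline females and these 2 males were the 5 highest Ide libraries in each region, across a difference in stage and in sex.

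Among 18 genes within 2 Mb of Ide with a mean of at least 1 log2 CPM in both regions, 2 had a median at least 0.2 higher in numbers 1, 2, 16 and 17 than in the others in both regions, against 2.25% of 12536 genes; these neighbours were named after their values were seen. Another 2, Htr7 (-0.24 in PFC and -0.23 in NAc) and Myof (-0.33 and -0.31), were lower by at least 0.2 in both regions, against 1.52% of genes. Fgfbp3 (chr19:36917550-36919615), a secreted protein that binds fibroblast growth factors, was 0.71 higher in PFC and 0.93 higher in NAc. Btaf1 (chr19:36926079-37012752), an ATPase that removes TATA-binding protein from DNA, was 0.53 and 0.72 higher. These 2 genes are next to each other, and Ide itself was 0.84 and 0.86 higher. Between Btaf1 and Ide lie Cpeb3, at -0.15 and 0.07, and March5, at 0.01 and -0.11.

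By library, Fgfbp3 in numbers 1, 2, 16 and 17 was 3.50, 3.36, 3.18 and 2.96 log2 CPM in PFC and 3.26, 3.00, 2.89 and 3.30 in NAc. In the others it ran up to 4.62 in PFC, in the shallow PFC 10, and up to 3.07 in NAc, in number 3. Only 1 other PFC library and 2 other NAc libraries exceeded the lowest of the 4. Btaf1 in the 4 numbers was 5.36, 5.67, 6.01 and 5.41 in PFC and 5.32, 5.6, 5.89 and 5.71 in NAc, with medians of 5.00 and 4.94 in the others, of which 2 in PFC and 3 in NAc exceeded the lowest of the 4. Gene copy number was not analysed here. Near Wdfy1, 0 of 11 genes were at least 0.2 higher in its high libraries in both regions, against 2.01% of all genes, and 1, Utp14b (-0.52 and -0.41), was lower, against 2.42%. Mrpl44, which overlaps Wdfy1, differed by 0.0665 and 0.00748.

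**Figure D3:**
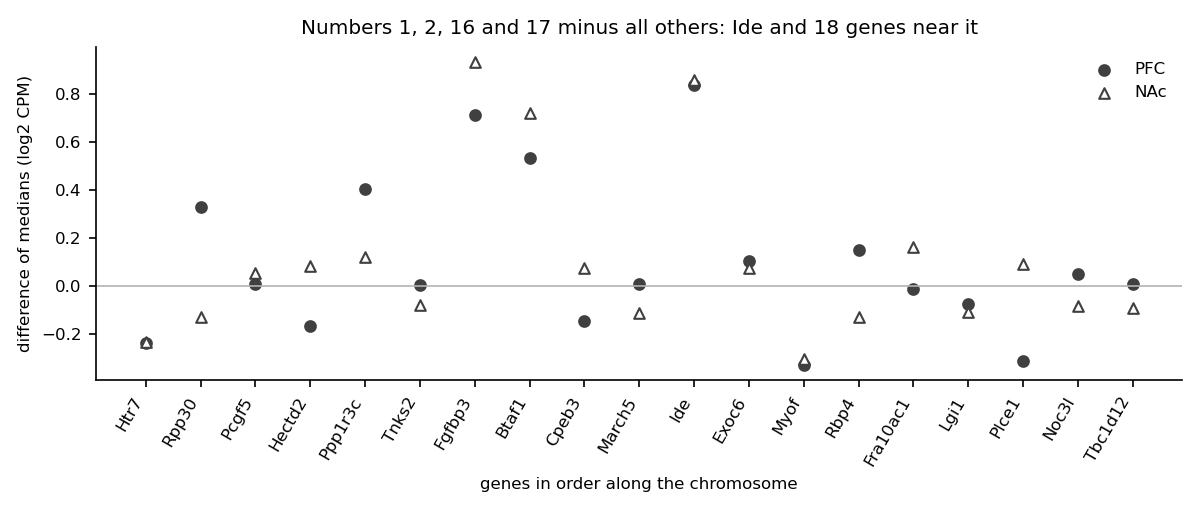
Difference of median level (log2 CPM, y axis) between numbers 1, 2, 16 and 17 and all other libraries for Ide and 18 genes near it, in order along chromosome 19, with circles for PFC and triangles for NAc. Ide, Fgfbp3 and Btaf1 are higher in both regions, while Cpeb3 and March5, which lie between them, are within 0.15 of 0.

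Nnt (chr13:119335448-119408997, minus strand) gave no split. Its levels ran from 3.78 to 4.73 log2 CPM in PFC and from 3.88 to 4.76 in NAc, with largest gaps of 0.14 and 0.15. No library was without Nnt reads, the fewest being 144 in PFC 10. The counts are per gene, so they do not show which exons were read, and a second Nnt entry of the annotation that shares 46.4% of its windows has no row in the table. On and off libraries mixed, with the on library higher in 50.5% of pairs in PFC and 44.5% in NAc.

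Nnt in the 24 h males was 4.37 to 4.48 in the 3 on libraries and 3.82 to 4.13 in the 2 off libraries of PFC, and 4.52 to 4.66 against 4.13 to 4.43 in NAc. Between regions, the deviations of Nnt from its group means had r = 0.431 over 30 numbers (permutation p = 0.039; adjusted p = 0.039 over the 3 genes tested and 0.078 over the 4 relations printed) and rho = 0.368 (permutation p = 0.0695). The median r over all genes was 0.069, and 6.42% of genes had an r as large. Without numbers 7 and 16, the 2 farthest from the median, r was 0.284 (permutation p = 0.178), so the relation rests on them.

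Entpd4 (chr14:69337174-69367270, plus strand) could not be read from these counts. Every window of 75 bases in it also occurs in Entpd4b (chr14:69555424-69585520), a copy with the same exon length, so a read of either could not be placed in 1 of them. Entpd4 had 0 counts in 19 of 30 PFC and 24 of 32 NAc libraries, at most 12 in any library, and 43 and 21 in all. Entpd4b had 212 counts in PFC 20, 76 in PFC 22 and 59 in NAc 15, and at most 10 elsewhere, and none of these 3 was repeated in the same number of the other region. Entpd4 was not tested, being under the low-count filter, and nothing is said of its level.

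**Figure D4:**
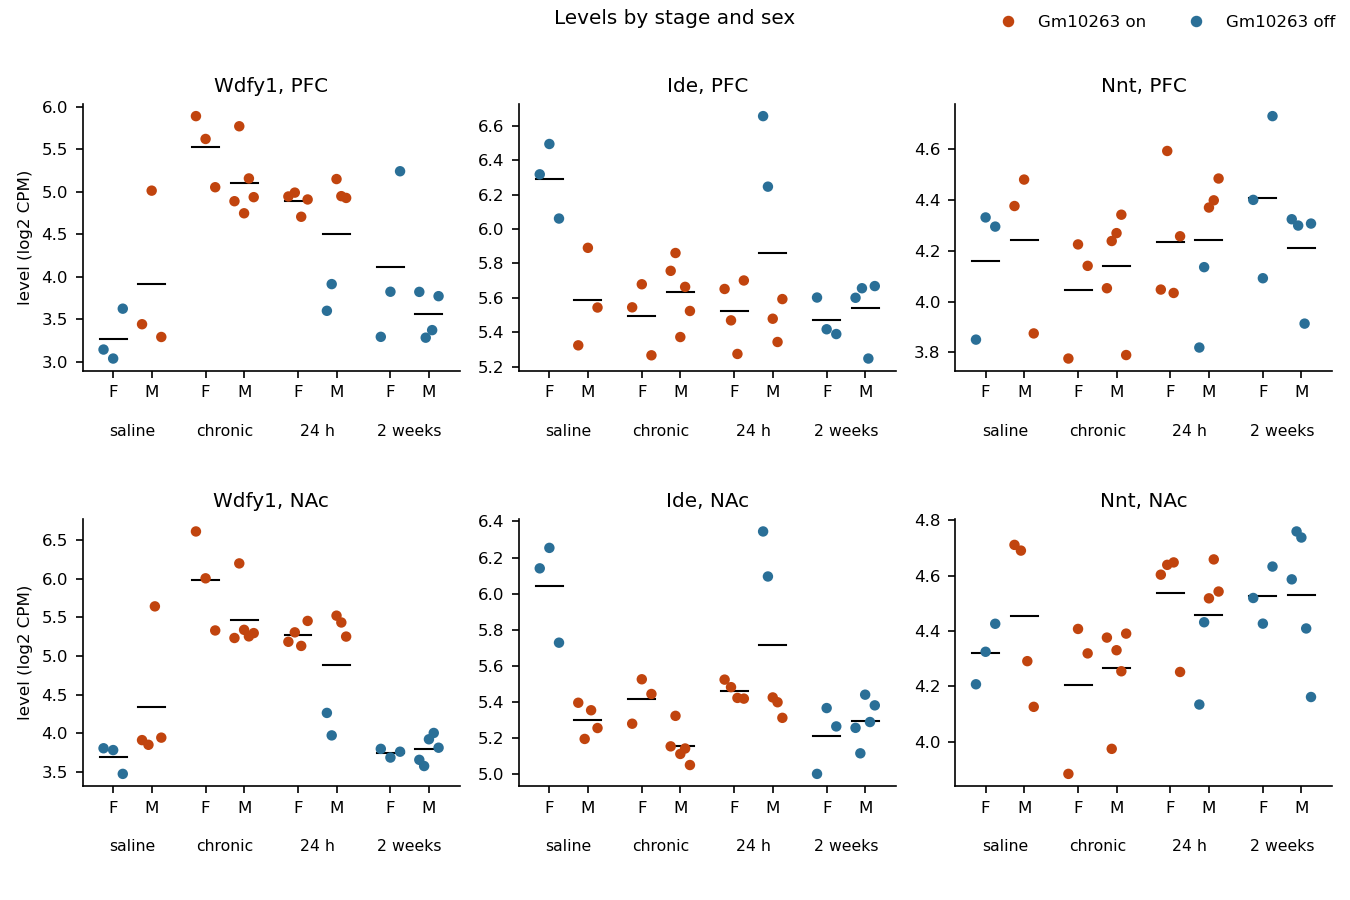
Levels (log2 CPM, y axis) of Wdfy1, Ide and Nnt by stage and sex (x axis, F female, M male) in PFC and NAc, 1 point per library, coloured by Gm10263 state, with black lines at group means. Wdfy1 is high in all chronic libraries and low in all 2-week libraries but PFC 10. Ide is high in saline females 1 and 2 and in 24 h males 16 and 17, with saline female 3 next below.

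The stage comparisons asked which of the genes differed from saline, averaged over the sexes. By edgeR, Wdfy1 was higher under chronic morphine in both regions, Ide and Nnt were not called at any stage, and Entpd4 was not tested. In PFC, Wdfy1 in saline had a lowest, median and highest level of 3.04, 3.37 and 5.02 log2 CPM (n = 6), and under chronic morphine 4.75, 5.11 and 5.89 (n = 8). The groups overlapped through saline male 6 alone. The log2 fold change was 1.64 ± 0.30 (SE), a 3.12-fold difference (edgeR quasi-likelihood test, adjusted p = 0.00446). This was 1 of 3 members tested, and 0.417% of 17966 genes were called in that comparison, 0.111% as higher.

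In NAc, Wdfy1 in saline was 3.47, 3.85 and 5.64 (lowest, median and highest, n = 7) and under chronic morphine 5.23, 5.33 and 6.61 (n = 8), again with only saline male 6 in the chronic range. The log2 fold change was 1.66 ± 0.27 (edgeR adjusted p = 0.00151), with 1.69% of 18382 genes called, 0.783% as higher. All 8 chronic libraries in each region had Gm10263 on. Only the 24 h males held both states, so the slope of a Gm10263 covariate rests mainly on that group. Values adjusted with it carry that slope to the other groups and do not separate stage from state. With the log2 CPM of Gm10263 as a covariate, the difference was 0.97 ± 0.38 in PFC (edgeR adjusted p = 1.0) and 0.95 ± 0.31 in NAc (edgeR adjusted p = 0.111), so the call was lost in both.

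Within females, chronic morphine against saline gave Wdfy1 a log2 fold change of 2.27 in PFC (edgeR adjusted p = 0.0193) and 2.39 in NAc (edgeR adjusted p = 0.00329). Of all genes, 0.189% and 0.609% were called. Here all chronic libraries were on and all saline libraries off. Within males, where both groups were on, it was 1.02 (edgeR adjusted p = 1.0) and 0.94 (edgeR adjusted p = 0.345), with 0.161% and 0.0653% of genes called, and without saline male 6 it was 1.61 in NAc (edgeR adjusted p = 0.0347). The PFC call in females was lost without any 1 of 6 libraries, with edgeR adjusted p from 0.0522 to 0.194; 1 of these was number 27, and without both 10 and 27 the value was 2.47 (edgeR adjusted p = 0.00554). The difference between the sexes was not called in PFC (edgeR adjusted p = 1.0) or NAc (edgeR adjusted p = 0.526), in a joint test over the 3 stages that called 0.0% and 0.0544% of genes.

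At 24 h, Wdfy1 was 3.60, 4.93 and 5.15 in PFC (lowest, median and highest, n = 9) and 3.97, 5.25 and 5.52 in NAc (n = 9). Its log2 fold changes from saline were 1.05 ± 0.29 (edgeR adjusted p = 0.385) and 1.0 ± 0.26 (edgeR adjusted p = 0.102), with 0 of 3 members called in each region, 1 (Wdfy1) at an unadjusted p under 0.05, and 0.0779% and 0.163% of genes called. Without saline male 6 they were 1.42 (edgeR adjusted p = 0.049) and 1.35 (edgeR adjusted p = 0.00646), and both were called. Without NAc 17, the NAc value was 1.10 (edgeR adjusted p = 0.0463).

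At 2 weeks, Wdfy1 was 3.28 to 5.24 in PFC and 3.58 to 4.0 in NAc, and differed from saline by 0.26 ± 0.30 (edgeR adjusted p = 0.947) and -0.36 ± 0.26 (edgeR adjusted p = 0.888). Without PFC 10 the PFC value was -0.14. Of the members, 0 of 3 were called in each region by edgeR, 1 (Ide) had an unadjusted p under 0.05, and 0.00557% of genes in PFC and 0.00544% in NAc were called.

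Ide was not called at any stage by edgeR, while 4 of its 6 stage comparisons had an unadjusted p under 0.05. Comparisons within a region share their saline libraries, so these are not separate results. The share of all genes at such a p is not given, here or for the other unadjusted counts, so none of these counts is read as a result. Under chronic morphine it was -0.38 ± 0.16 from saline in PFC (edgeR adjusted p = 0.521) and -0.40 ± 0.12 in NAc (edgeR adjusted p = 0.0854). The NAc value was called by DESeq2 (-0.39, adjusted p = 0.0408) and, by edgeR, without NAc 16 (-0.40, adjusted p = 0.031). At 2 weeks it was -0.43 ± 0.16 and -0.42 ± 0.12 (edgeR adjusted p = 0.854 and 0.333). With Gm10263 as a covariate the 2-week values were -0.90 ± 0.14 and -0.70 ± 0.11 and were called (edgeR adjusted p = 0.00731 and 0.00294), while the chronic value in PFC turned to 0.20 (edgeR adjusted p = 1.0). Saline females and all 2-week libraries are off, and those saline females held 2 of the 4 highest Ide numbers. The slope of the covariate rests mainly on the 24 h males, where off numbers 16 and 17 had high Ide. The values with the covariate therefore do not separate stage from Gm10263 state. By sex, chronic Ide differed from saline by -0.81 in PFC and -0.64 in NAc in females, and by 0.04 and -0.16 in males. At 2 weeks it was -0.83 and -0.83 in females, and -0.04 and -0.01 in males. At 24 h it was -0.78 and -0.61 in females, and 0.35 and 0.46 in males. None of these was called by edgeR. Sex by stage was not called by edgeR (adjusted p = 0.721 in PFC and 0.208 in NAc). DESeq2 called it in NAc (adjusted p = 0.0191).

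Nnt was not called either, with log2 fold changes from -0.16 to 0.14 over the 6 comparisons and edgeR adjusted p from 0.508 to 1.0. The sexes were not called different for any of the 3 genes (edgeR adjusted p from 0.918 to 0.989, 0 at an unadjusted p under 0.05; 0.0334% of genes called in PFC and 0.0598% in NAc).

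**Figure D5:**
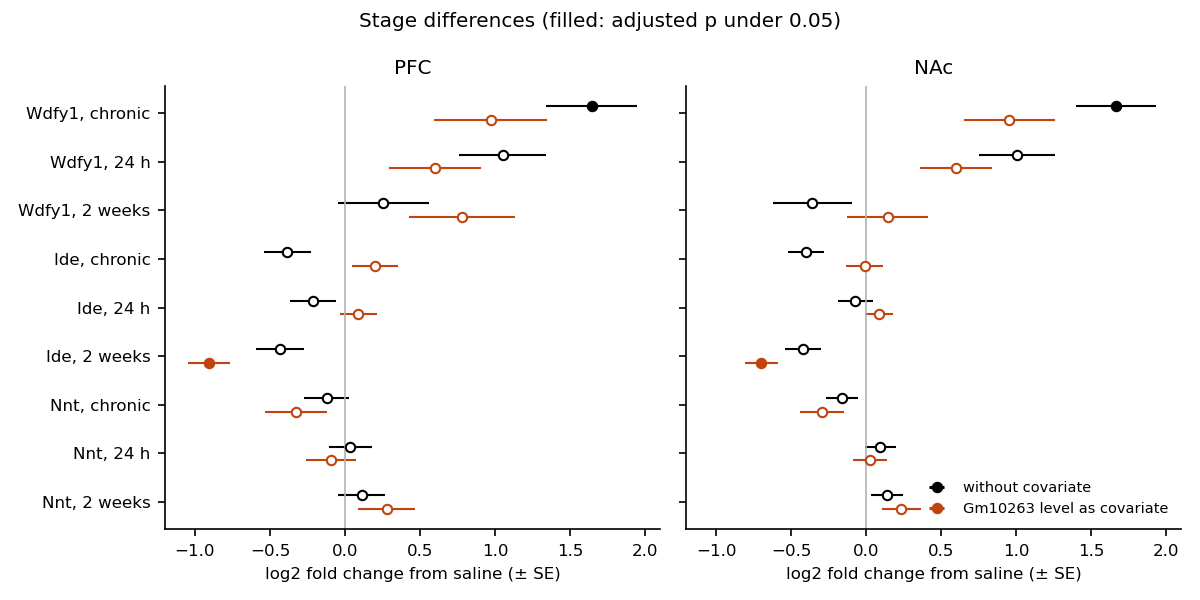
Log2 fold change from saline with its SE (x axis) for Wdfy1, Ide and Nnt at each stage in PFC and NAc, without (black) and with (orange) the Gm10263 level as a covariate, filled where the edgeR adjusted p was under 0.05. Wdfy1 under chronic morphine is filled without the covariate and open with it, and Ide at 2 weeks the reverse. The slope of the covariate rests mainly on the 24 h males, the only group with both states.

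Summed levels of marker genes of other cell types overlapped between saline and chronic libraries. In PFC, the summed CPM of 4 oligodendrocyte markers was 3616 to 6042 in saline and 3539 to 6987 under chronic morphine, and that of 8 striatal markers was 190 to 221 and 181 to 297. In NAc, striatal markers summed to 383 to 4915 in saline and 413 to 7676 under chronic morphine, with 0 of 8 called and a median log2 fold change of 0.56 against -0.01 over all genes. The lowest sums were those of saline male 6 (383) and chronic female 25 (413), against a median of 3280 over all NAc libraries. Number 6 was the saline number with high Wdfy1, and number 25 had the highest Wdfy1 level in both regions. The highest sum, 7676, was that of NAc 28, which also had high Wdfy1. In PFC, 5 cortical excitatory neuron markers summed to 2238 to 3436 in saline and 1676 to 4340 under chronic morphine, and 3 choroid plexus markers to 4.59 to 148 and 4.14 to 3326. Their part in the Wdfy1 difference was not tested.

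Between regions, Ide was lower and Nnt higher in NAc than in PFC. Ide differed by -0.24 ± 0.07 on the log2 scale (edgeR adjusted p = 0.0017) and Nnt by 0.19 ± 0.06 (edgeR adjusted p = 0.00659), while Wdfy1 differed by 0.26 ± 0.14 (edgeR adjusted p = 0.0927). Wdfy1 was called with the library number as a block (0.31, edgeR adjusted p = 0.000828) and without numbers 10 and 27 (0.36, edgeR adjusted p = 0.0174). Of 19266 genes, 66.2% were called in this comparison, so neither 2 nor 3 of 3 members is far from the background. No stage effect differed between the regions for a member (edgeR adjusted p from 0.986 to 0.998), and 0.0363% of genes were called. Per kilobase of exon, mean levels in PFC were 7.03 ± 2.05 CPM per kb for Ide, 3.87 ± 2.19 for Wdfy1 and 2.65 ± 0.44 for Nnt (SD, n = 30), with Ide from 5.05 and Wdfy1 up to 9.15. In NAc they were 5.92 ± 1.63, 4.76 ± 3.19 and 3.06 ± 0.46 (SD, n = 32), with Ide from 4.26 and Wdfy1 up to 15.04. The ranges of Ide and Wdfy1 overlapped in both regions, and since Wdfy1 differed between stages, these pooled means are not read as an order.

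The genes most like each member were named by the smaller of the PFC and NAc correlations after group means were removed, among 12535 others. Wdfy1 was most like Me1, the cytosolic malic enzyme that makes NADPH (r = 0.69 in PFC and 0.70 in NAc), then Ecel1, a neuronal endopeptidase (0.68 and 0.73), and C2cd2 (0.67 and 0.70). Ide was most like Mga, a transcription factor that pairs with MAX (0.59 and 0.62), Ube3a, a ubiquitin ligase (0.58 and 0.73), and Mon2, a Golgi trafficking protein (0.56 and 0.65). Nnt was most like the kainate receptor gene Grik2 (0.49 and 0.51), Fut10 (0.47 and 0.44) and Tshz1 (0.53 and 0.43). These are over 30 and 32 libraries that share depth and dissection.

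None of the members' relatives passed the test. Of 12 genes for mitochondrial NADPH and antioxidant defence (such as Idh2 and Sod2), 3 Wdfy genes, 6 of 8 Entpd genes and 7 of 8 peptidases related to Ide that could be tested, 0 were called at any stage in either region by edgeR, and 7 of 168 single tests had an unadjusted p under 0.05. Over all genes, 0.00544% to 1.69% were called in these comparisons, so a count of 0 in lists of this size does not set them apart. Their median log2 fold changes under chronic morphine ran from -0.11 to 0.23 in PFC and from -0.01 to 0.10 in NAc, beside 0.01 and -0.01 over all genes.

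Of 7 other genes known to differ between C57BL/6 lines, 5 were tested, and Gabra2 was called. Gabra2, the alpha 2 subunit of the GABA type A receptor, is known for an intronic deletion in C57BL/6J that lowers its level. In NAc it differed from saline by 0.99 ± 0.25 under chronic morphine (edgeR adjusted p = 0.035), 1 of 5 list genes where 1.69% of all genes were called. In PFC (0.71 ± 0.27, edgeR adjusted p = 0.457) and at the other stages it was not called.

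After its values were seen, Gabra2 was also ordered by library. In PFC it lay in 3 bands, 16 libraries from 5.10 to 5.40 log2 CPM, 10 from 6.15 to 6.46, and numbers 8, 9, 10 and 25 from 6.81 to 7.01. In NAc the numbers of the lowest PFC band had 5.54 to 6.60 and those of the upper bands 6.58 to 7.90, so the sets met at their edges. Gm10263 was on in 9 of the 16 low PFC libraries and in 9 of the 14 others. High Wdfy1 and high Gabra2 met in 10 PFC libraries, high Wdfy1 with low Gabra2 in 7, low Wdfy1 with high Gabra2 in 4 and both low in 9, so all 4 combinations occurred. All 4 libraries with high Ide had low Gabra2 in PFC.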

How the data were processed

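Total RNA libraries of mouse brain punches were sequenced as read pairs of 75 bases, per the labels' protocols. The authors deposited 1 table of raw counts per gene for the 62 mouse libraries; the processing notes of the submitters name FastQC, cutadapt, Trimmomatic, STAR, HISAT2, RSEM and the builds GRCm38 and Rnor_6.0 without assigning them to a species, so the aligner, counter and strand setting of this table are not given in the sources used here. Rows for reads given to no gene (medians of 0.57% unaligned, 14.7% aligned to several places and 5.43% outside genes) stayed out of library sizes. The deposited rat table was not used here.

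Symbols matched 45143 of 46078 identifiers. Positions, exons and sequence came from GRCm38 and GENCODE M21. Counts were scaled by TMM and tested with edgeR 4.0.16 (R 4.3.3, limma 3.58.1) within each region, with groups of stage and sex and the default filter on low counts, and adjusted by Benjamini-Hochberg over all genes tested. Genes with adjusted p under 0.05 are said to be called. Log2 CPM used a prior count of 2. Correlations were tested by 100000 two-sided permutations. Gm10263 was on above the midpoint of the largest gap in its levels, and a member was high above the midpoint of its own largest gap. The scripts were tested on simulated data. P-values measure the spread between these libraries, which may in part be technical.

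The members and gene lists were chosen with earlier results of these data known. Named genes were the members, Gm10263, the 3 genes most like each member and list genes called in a stage comparison. The alternatives tried were no filter, scaling by median-of-ratios size factors, DESeq2 1.42.0, Gm10263 as a covariate, a prior count of 0.5, the library number as a block and leaving out each library. Leaving out numbers 10 and 27 together and gaps with 3 libraries on each side were added after the data were seen. The low and high sets within which correlations were taken were also read from the data.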

Additional observations from a re-analysis of the deposited data

Results flagged for a closer look

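In 8 of 51 groups of 4 to 10 libraries, the highest or lowest level of a member stood far from the rest by Dixon's test. For separate groups, chance alone gives this in about 1 of 20. These groups overlap, since each stage was taken with the sexes together and apart, so 8 of 51 cannot be set against that rate. Wdfy1 of saline male 6 was 5.02 log2 CPM in PFC, against 3.63 for the nearest saline library, and 5.64 in NAc, against 3.94, both among all saline libraries and, in NAc, among saline males. Wdfy1 of PFC 10, the shallow library, was 5.24 against 3.83 for the nearest other 2-week library. Wdfy1 of chronic male 29 was 6.20 in NAc against 5.34 among chronic males. In male 14 at 2 weeks, Ide was 5.25 in PFC against 5.60, and Nnt was 3.91 against 4.30. Nnt of 24 h female 21 was 4.25 in NAc against 4.60.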

How the results depend on the processing

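Apart from leaving out 1 library, 163 of 196 recomputed values kept their direction and side of the threshold. The slope of the Gm10263 covariate rests mainly on the 24 h males, so values with it do not separate stage from state. Adding Gm10263 as a covariate ended the Wdfy1 calls under chronic morphine (0.97 in PFC, 0.95 in NAc), made Ide called at 2 weeks (-0.90 in PFC, -0.70 in NAc) and turned uncalled values: Ide at 24 h (0.0861 in NAc, 0.0885 in PFC), Ide chronic in PFC (0.20), Ide sex by stage (-0.19 in NAc, -0.13 in PFC), Ide male minus female in PFC (0.064), Nnt sex by stage in NAc (0.12), Nnt at 24 h in PFC (-0.0942), Wdfy1 at 2 weeks in NAc (0.14) and Wdfy1 male minus female in NAc (-0.19). DESeq2 called Ide chronic in NAc (-0.39), Ide sex by stage in NAc (0.49) and Wdfy1 at 24 h in NAc (1.01). Without numbers 10 and 27, chosen after seeing the data, Wdfy1 was called between regions (0.36), Nnt male minus female in PFC turned to 0.0413, Wdfy1 male minus female in NAc to -0.0392 and Wdfy1 at 2 weeks in PFC to -0.14, and the r of Nnt was 0.412; without its 2 farthest numbers it was 0.284. With group means removed, on and off libraries can differ on average only within the 24 h males. The shares still count all on-off pairs across groups, so the spread within the other groups also enters them. The on library was then higher in 61.6% (PFC) and 61.5% (NAc) of pairs for Nnt. For Wdfy1 it was higher in 63.4% and 55.5%, and for Ide in 35.6% and 32%. Of all genes, 5.02% and 4.99% were as far from an even split as Nnt, 1.90% and 43.2% as Wdfy1, and 1.14% and 0.125% as Ide. With a prior count of 0.5, the share of genes with a gap as large as that of Wdfy1 rose from 4.81% to 19.5% in PFC and from 1.47% to 13.2% in NAc. Apart from these constructions, the cause was not tested.

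Leaving out 1 library kept 904 of 930 values. Wdfy1 under chronic morphine was called throughout, at 1.49 to 2.01 in PFC and 1.48 to 1.99 in NAc. Calls were gained for Wdfy1 at 24 h without number 6 in either region and without NAc 17 (ranges 0.90 to 1.42 in PFC and 0.92 to 1.35 in NAc) and for Ide chronic without NAc 16 (-0.47 to -0.34). Uncalled values crossed 0 for Nnt in PFC at 24 h (-0.0556 to 0.0802), male minus female (-0.0606 to 0.0307) and sex by stage (-0.14 to 0.14), and for Wdfy1 male minus female (-0.13 to 0.12 in NAc, -0.35 to 0.0315 in PFC) and at 2 weeks in PFC (-0.14 to 0.63).

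With the library number as a replicate block, Wdfy1 was called between regions (0.31, edgeR adjusted p = 0.000828), and the uncalled region by stage values turned to 0.0179 for Ide, 0.0117 for Nnt and -0.0676 for Wdfy1; the block changed no other call. Deviations of same-numbered libraries had correlations of 0.00536 to 0.217 over 19209 genes, with 4 of 30 over 0.1. Of the 30, 13 were highest with their own number, so the main fits did not take the numbers as pairs. The side counts and correlations between regions do match libraries by number and rest on that matching.

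Genes called under chronic morphine numbered 75 in PFC and 311 in NAc by edgeR, 173 and 691 by DESeq2, 11 and 24 with the covariate, 185 and 113 without numbers 10 and 27, and 185 in NAc without a low-count filter. Single libraries moved them too: in PFC to 46, 47 and 47 without numbers 1, 6 and 28 and to 178 without 10, and in NAc to 120, 134 and 185 without 27, 1 and 6 and to 566 without 25. At 24 h they numbered 14 and 30 by edgeR, 46 and 132 by DESeq2, 8 and 18 with the covariate, and 11 to 30 (highest without PFC 10) and 3 to 49 (lowest without NAc 1, highest without NAc 17) without 1 library. At 2 weeks they numbered 1 and 1 by edgeR, 5 and 30 by DESeq2, 2 and 8 with the covariate, and 0 to 1 (0 without PFC 8 or 9) and 1 to 5 (highest without NAc 17) without 1 library. PFC 10 has the fewest counts, and so the widest counting error.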
